A study of Mus musculus with 6 samples.

Results

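The matrix metalloproteases, the related ADAM and ADAMTS proteases, the ADAMTS-like proteins and the 4 tissue inhibitors of metalloproteases were followed through the cell types of the mouse aorta. Members were chosen by gene symbol alone, as every gene named Mmp, Adam, Adamts or Adamtsl with a number, plus Timp1 to Timp4. This gave 84 of the 27998 genes in the deposited matrices, with 23 Mmp, 33 Adam, 19 Adamts, 5 Adamtsl and 4 Timp genes. At least 1 transcript was counted for 71 of them, made up of 19 Mmp, 24 Adam, and all Adamts, Adamtsl and Timp genes. The 13 members with no count in any cell were Mmp1a, Mmp1b, Mmp20, Mmp21, Adam6a, Adam20, Adam24, Adam25, Adam26a, Adam26b, Adam29, Adam34 and Adam39.

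The data were single-cell RNA profiles of digested aortas of C57B/6J mice aged 18 weeks. Of the 6 samples, 3 were controls fed a normal diet and 3 were from high-fat diet mice, named control 1 to 3 and high-fat diet 1 to 3. The make-up and length of the diet and the sex of the mice are not given in the sources used here, nor whether each sample is a separate animal, so a p-value measures only the spread between these samples. Cells were sorted into classes by clustering without the member genes, and each class was named from marker genes as resembling a type, so "fibroblast-like" means a set of clusters rich in fibroblast markers. Of the 20 named classes, 10 had at least 20 cells in every sample, and 4 of these (endothelial-like, smooth muscle-like, fibroblast-like and macrophage-like) were compared between diets. Each transcript was tagged near its 3′ end and counted once, as 1 UMI (unique molecular identifier), whatever its length. A level is given as CPM, the gene's share of all UMIs of that class in that sample scaled to a total of 1000000, as mean ± SD over the 6 samples unless other samples are named. A lower level in a class sum cannot tell fewer expressing cells from less RNA per cell.

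Matrix metalloproteases are zinc enzymes that are made as inactive precursors and cut collagens, elastin, proteoglycans and other proteins outside the cell. ADAM proteases sit in the membrane and shed the outer parts of receptors and growth factors, ADAMTS proteases are secreted and cut proteoglycans and procollagens, and ADAMTS-like proteins share the binding domains of the ADAMTS family but have no protease domain. TIMP proteins bind the active site of these enzymes and block it, and in arteries the balance of protease and inhibitor bears on elastin loss, remodelling and plaque stability.

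Part of the Mmp family lies in 1 gene cluster on chromosome 9, and its promoters are shown because its members were counted in different cell types. The 10 Mmp genes there that have a promoter in the sequence table lie between bases 7272514 and 7699585 (GRCm38 build, GENCODE vM21 gene models). The letters TGANTCA, the core of the element bound by AP-1 dimers of Fos and Jun proteins, were searched in the 250 bases before each start, and this motif is its own reverse complement, so 1 search covers both strands. It was found before 8 of those 10 genes. A promoter was listed for 53 of the 84 members, with 58 promoters in all, and 12 of these held the motif, against 6.75% of the 32851 promoters in the table. Of these 12, 8 belonged to the chromosome 9 genes, and the rest to Adam19, Adam20, Adam25 and Adam29. The 100 bases before the start are given below for 5 of these genes, 5′ to 3′ on the plus strand of chromosome 9, with the motif in capitals (RefSeq, GRCm38.p6). Mmp3 spans chr9:7445722-7445821, Mmp10 chr9:7502242-7502341, Mmp12 chr9:7347274-7347373 (the second of its 2 listed starts, the other one having no match), Mmp13 chr9:7272414-7272513 and Mmp8 chr9:7558329-7558428.
Mmp3: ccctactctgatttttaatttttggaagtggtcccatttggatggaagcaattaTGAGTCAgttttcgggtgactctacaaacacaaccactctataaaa
Mmp10: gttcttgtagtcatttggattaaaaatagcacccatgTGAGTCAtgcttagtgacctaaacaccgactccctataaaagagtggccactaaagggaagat
Mmp12: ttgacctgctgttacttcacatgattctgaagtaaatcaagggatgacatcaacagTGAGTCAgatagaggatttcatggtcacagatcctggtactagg
Mmp13: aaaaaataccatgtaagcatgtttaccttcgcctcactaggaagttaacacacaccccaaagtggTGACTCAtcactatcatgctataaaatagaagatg
Mmp8: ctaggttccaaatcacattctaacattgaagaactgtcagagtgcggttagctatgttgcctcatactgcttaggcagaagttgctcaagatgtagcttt

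Counted from the start of the transcript, the motif begins at base -46 for Mmp3, -63 for Mmp10, -44 for Mmp12 and -35 for Mmp13, and Mmp8 has none in the window searched. A match describes letters only and is not a bound site. Genes with and without the motif were counted at very different totals: 39165 UMIs for Mmp3, 1866 for Mmp12, 1106 for Mmp13 and 3 for Mmp10, beside 576 for Mmp8. The classes that led these genes also differed, as described below.

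The 6 samples held 62838 cells and between 41388034 and 83886418 UMIs each, and 58034 cells in 40 clusters were used. Many fibroblast-like and smooth muscle-like clusters came almost wholly from 1 sample (for instance, 1327 of the 1347 cells of cluster 5 came from high-fat diet 2). Control 1 stood apart: the summed level of 5 skeletal muscle markers was 1649 CPM in its fibroblast-like cells and 2331 CPM in its T cell-like cells, against 13.4 to 419 CPM and 19.7 to 732 CPM in the other samples. Between wells of different samples, 0.142% to 1.58% of the cell barcodes of the smaller well were shared. The defining markers of the 4 compared classes were all above 0 in their class.

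Inhibitors made up most of the family's RNA in 8 of the 10 classes. The 4 Timp genes together held 76.0% of the members' CPM in lymphatic endothelial-like cells, 67.7% in endothelial-like cells, 55.6% in fibroblast-like cells, 48.2% in T cell-like cells and 41.6% in dendritic cell-like cells. Summed over all members, the level was 5548 CPM in fibroblast-like cells, 4078 in mesothelial-like cells, 2862 in endothelial-like cells, 2705 in smooth muscle-like cells and 2118 in macrophage-like cells. It was 785 CPM in T cell-like cells. Fibroblast-like cells had the highest summed levels of the Mmp genes (1054 CPM), Adamts genes (807 CPM), Adamtsl genes (269 CPM) and Timp genes (3087 CPM), whereas the Adam sum was 653 CPM in Schwann-like cells against 332 CPM in fibroblast-like cells. Among members that reached 10 CPM in some class, fibroblast-like cells were the leading class for 13, and for 5 of these the lowest fibroblast-like sample was above every sample of the other 9 classes. Schwann-like cells led for 6, pericyte-like and macrophage-like cells for 4 each, endothelial-like, lymphatic endothelial-like and mesothelial-like cells for 3 each, smooth muscle-like cells for 2, and T cell-like and dendritic cell-like cells for 1 each. These orders describe classes cut from the same cells, and no test was made between them. Schwann-like levels rest on fewer counts, as that class had 23 to 84 cells and 66003 to 237226 UMIs per sample. Fibroblast-like samples had 5239574 to 26185931 UMIs.

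**Figure D1:**
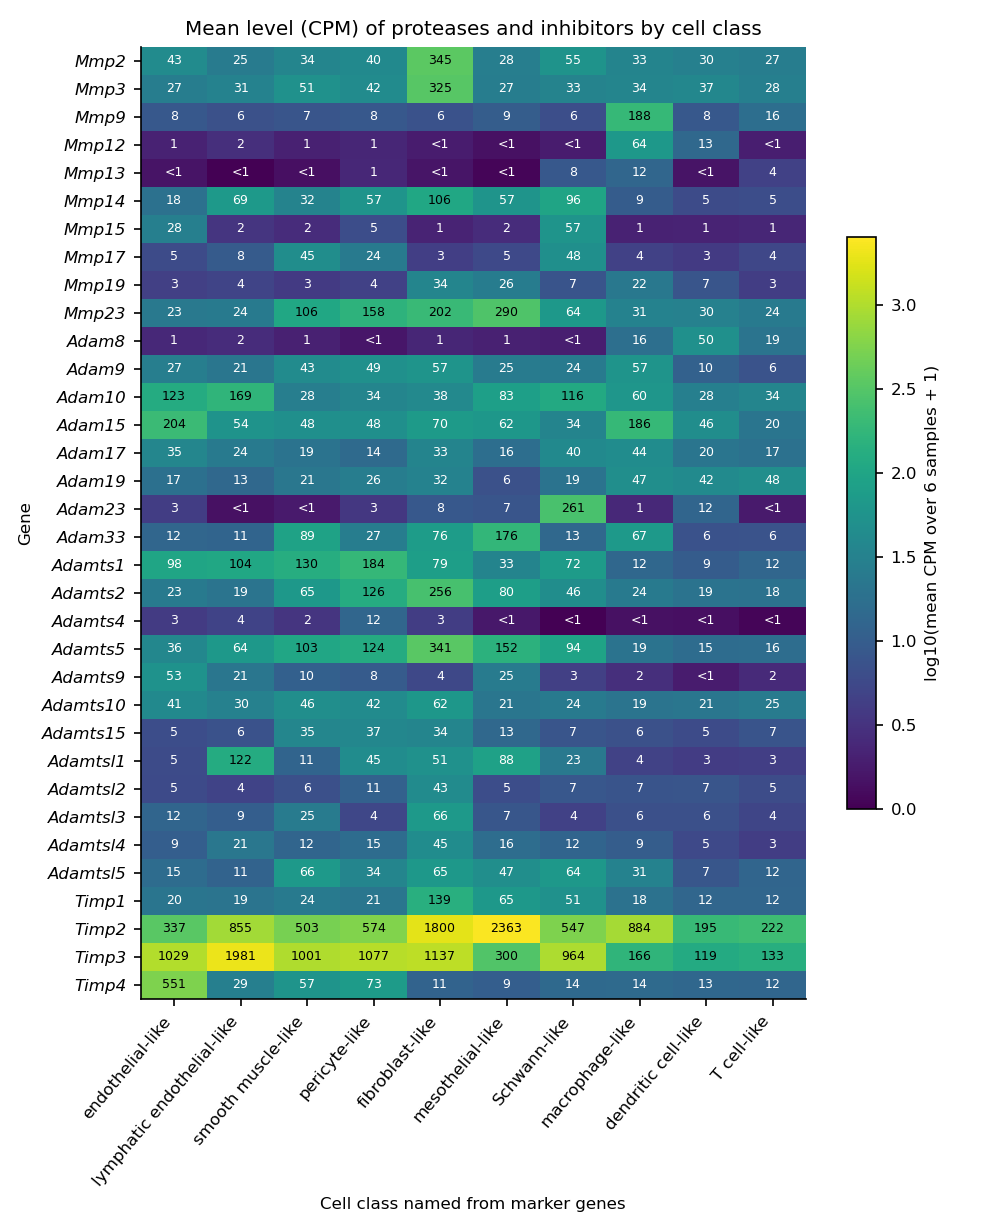
Mean level (CPM over the 6 samples) of 34 members in the 10 cell classes with at least 20 cells in every sample, with genes in rows and classes in columns, colour giving log10 of the mean plus 1. Timp2 ranges from 195 CPM in dendritic cell-like to 2363 CPM in mesothelial-like cells. Timp3 ranges from 119 CPM in dendritic cell-like to 1981 CPM in lymphatic endothelial-like cells. Timp4 (551 CPM in endothelial-like cells), Mmp9 (188 CPM in macrophage-like cells), Adam23 (261 CPM in Schwann-like cells) and Mmp2 (345 CPM in fibroblast-like cells) each stand out in 1 column.

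Among the secreted Mmp genes, Mmp2, the gelatinase that cuts denatured collagen and basement membrane (chr8:92827291-92853420), was a fibroblast-like gene. Its level there was 349, 566 and 321 CPM in controls 1 to 3 and 260, 280.4 and 294 CPM in high-fat diet samples 1 to 3. The next class was Schwann-like cells (54.9 ± 20.3 CPM), and the highest value in any sample of the other 9 classes was 87.7 CPM, in a pericyte-like sample, so the fibroblast-like samples stood clear of all others. A UMI of Mmp2 was seen in 67.3% of fibroblast-like cells (median depth 4393 UMIs) and in 8.50% of T cell-like cells (median 3307 UMIs). At a depth thinned to 1000 UMIs per cell the shares were 28.5% and 1.87%. Chondrocyte-like cells, which were too few in some samples for a level per sample, had a pooled level of 405 CPM (95% Poisson interval 389 to 421, counting error only).

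Mmp3, or stromelysin 1, cuts proteoglycans and basement membrane proteins and activates other pro-Mmps (chr9:7445822-7455975). Its fibroblast-like level was 277, 98.9 and 183 CPM in the controls and 463, 512 and 415 CPM in the high-fat diet samples. All 3 high-fat diet samples were above all 3 controls. The next class, smooth muscle-like cells, was at 51.4 ± 50.6 CPM, and its highest sample (148 CPM) was above the lowest fibroblast-like sample. The smaller Mmp3 levels of other classes moved together from sample to sample. In T cell-like cells they were 53.3, 2.5 and 4.1 CPM in the controls and 28.2, 45.2 and 34.9 CPM in the high-fat diet samples, and in macrophage-like cells 48.1, 4.7 and 6.0 CPM and 51.8, 63.3 and 31.8 CPM. Control 1 and the 3 high-fat diet samples were thus high, and controls 2 and 3 low, in both of these classes. The summed level of 8 fibroblast markers in macrophage-like cells was 3194, 1060 and 737 CPM in the controls and 1365, 1836 and 1614 CPM in the high-fat diet samples, and its part in these Mmp3 levels was not tested. A UMI of Mmp3 was seen in 23.5% of fibroblast-like and 5.54% of T cell-like cells, or 11.7% and 1.37% at 1000 UMIs per cell.

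**Figure D2:**
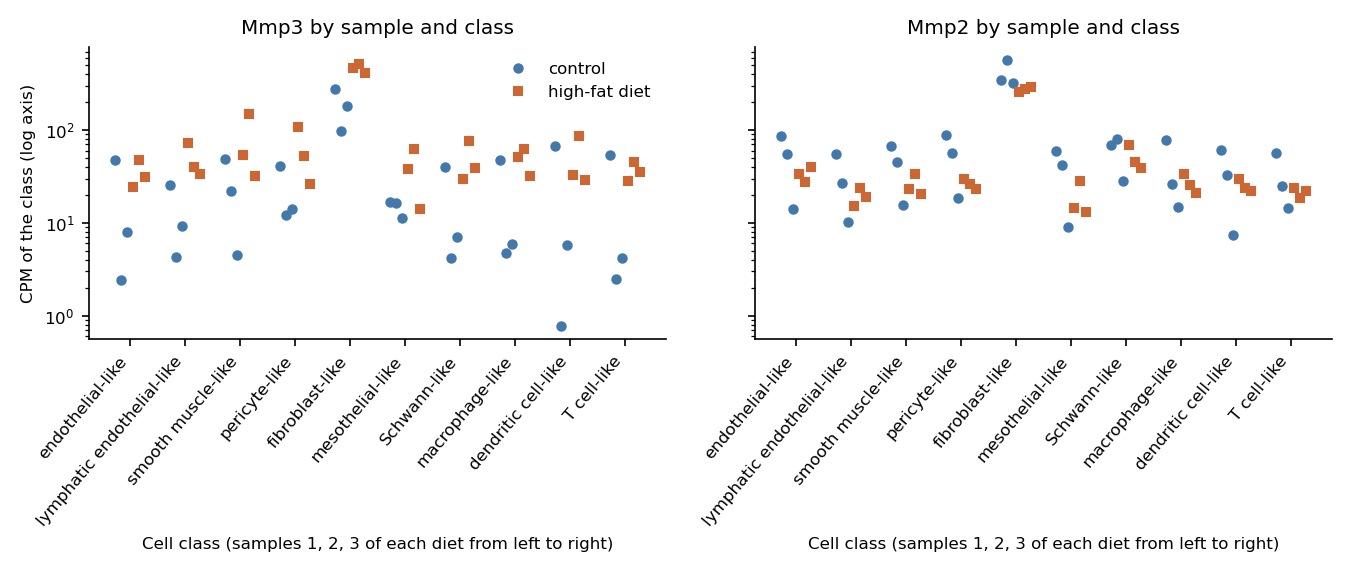
Levels of Mmp3 and Mmp2 (CPM, log axis) in each sample of the 10 cell classes, with circles for control and squares for high-fat diet samples 1 to 3 from left to right. Every fibroblast-like sample stands above all samples of the other classes for Mmp2. For Mmp3 the fibroblast-like mean is the highest, but the highest smooth muscle-like sample lies above the lowest fibroblast-like one. Fibroblast-like Mmp3 is higher in the 3 high-fat diet samples (415 to 512 CPM) than in the controls (98.9 to 277 CPM). In most other classes controls 2 and 3 lie below the remaining samples for Mmp3.

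The membrane-bound Mmp14, which activates pro-Mmp2 and cuts fibrillar collagen, was spread over stromal classes. It stood at 106 ± 11.7 CPM in fibroblast-like cells, 96.4 ± 37.6 CPM in Schwann-like cells and 68.8 ± 19.2 CPM in lymphatic endothelial-like cells, with overlapping samples between neighbours. Mmp23, a membrane protease of the secretory pathway, was highest in mesothelial-like cells (290 ± 47.2 CPM), followed by fibroblast-like (202 ± 51.5 CPM), pericyte-like (158 ± 46.5 CPM) and smooth muscle-like cells (106 ± 33.7 CPM), again with overlap at each step. Mmp17 and Mmp15, further membrane-type members, were both led by Schwann-like cells, at 48.0 ± 24.9 and 56.5 ± 18.5 CPM. The next class was smooth muscle-like cells for Mmp17 (45 ± 11.3 CPM) and endothelial-like cells for Mmp15 (28 ± 5.2 CPM). Every endothelial-like sample of Mmp15 was above every sample of the class after it, pericyte-like cells.

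Leukocyte classes carried a different set. Mmp9, the gelatinase of macrophages and neutrophils, was at 204, 173 and 385 CPM in the control and 146, 121 and 96.1 CPM in the high-fat diet macrophage-like cells. Each of these was above every sample of every other class with values in all samples, of which T cell-like cells were next (15.8 ± 8.4 CPM). A UMI of Mmp9 was seen in 35.4% of macrophage-like cells and in 3.87% of T cell-like cells. Mmp12, the macrophage elastase, was far more unequal, with 48.4, 26.7 and 20.1 CPM in control and 51.5, 198 and 40.5 CPM in high-fat diet macrophage-like cells. High-fat diet 2 stood far above the other 5 samples. A UMI of the gene was seen in 2.49% of macrophage-like and 0.2% of T cell-like cells. Mmp13, a collagenase, was at 12.3 ± 6.8 CPM in macrophage-like cells and at 104 CPM (96.0 to 112, 95% Poisson interval) in the pooled chondrocyte-like cells. The 163 neutrophil-like cells, pooled over samples, had the collagenase Mmp8 at 778 CPM (706 to 854) and Mmp9 at 553 CPM (494 to 618). Mmp19 was shared by fibroblast-like (33.8 ± 2.8 CPM), mesothelial-like (25.8 ± 10.7 CPM) and macrophage-like cells (22.2 ± 11.6 CPM). Of the other Mmp genes with counts, Mmp11 reached 35.1 ± 13.5 CPM in pericyte-like and Mmp16 11.2 ± 2.5 CPM in fibroblast-like cells, while Mmp7, Mmp8, Mmp10, Mmp24, Mmp25, Mmp27 and Mmp28 stayed under 10 CPM in all 10 classes.

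Of the ADAM sheddases, Adam10 and Adam17, which release Notch, cytokine and growth factor domains, were broad. Adam10 was at 169 ± 26.6 CPM in lymphatic endothelial-like, 123 ± 13.6 CPM in endothelial-like and 116 ± 23 CPM in Schwann-like cells, and Adam17 at 44.0 ± 7.5 CPM in macrophage-like, 39.8 ± 18.7 CPM in Schwann-like and 35 ± 5.6 CPM in endothelial-like cells. Adam15 was led by endothelial-like cells (204 ± 19.7 CPM) and macrophage-like cells (186 ± 22.3 CPM), which overlapped each other. Both stood above every sample of the fibroblast-like class that followed (69.9 ± 10.2 CPM). Adam9 was at 56.8 CPM in both fibroblast-like and macrophage-like cells, with SDs of 4.7 and 7.4 CPM.

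Other Adam genes were led by different classes. Adam23, a catalytically inactive member of neural cells that binds integrins, was at 109, 244 and 351 CPM in control and 234, 212 and 418 CPM in high-fat diet Schwann-like cells. The next class, dendritic cell-like, was at 11.8 ± 5.8 CPM, so the lowest Schwann-like sample lay above all samples of the other 9 classes. A UMI of Adam23 was seen in 43.7% of Schwann-like cells and 0.27% of T cell-like cells. Adam11 and Adam22, also inactive neural members, were again highest in Schwann-like cells (114 ± 47.6 and 25.1 ± 8.8 CPM). Adam8, a leukocyte sheddase, was highest in dendritic cell-like cells (50.1 ± 11.6 CPM), before T cell-like (19.3 ± 9.2 CPM) and macrophage-like cells (16.3 ± 3.4 CPM). Adam33, known from airway muscle and mesenchyme, was at 176 ± 28.4 CPM in mesothelial-like cells, above every sample of smooth muscle-like (89.2 ± 11.6 CPM) and fibroblast-like cells (75.9 ± 29.6 CPM). It was also at 66.5 ± 8.2 CPM in macrophage-like cells and at a pooled 193 CPM (137 to 263, 95% Poisson interval) in the 44 perineurial-like cells. Adam19 was near 47 CPM in both T cell-like (47.5 ± 16 CPM) and macrophage-like cells (47.1 ± 9.2 CPM). Adam12 was low, at 5.1 ± 4.2 CPM in T cell-like and 2.6 ± 1.4 CPM in fibroblast-like cells. The remaining Adam genes with counts, among them the testis members Adam1a, Adam2, Adam3, Adam5 and Adam18, stayed under 10 CPM in all 10 classes.

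The aggrecanase-type Adamts5, which cuts versican and aggrecan, and Adamts2, which trims the N-terminal propeptide of fibrillar collagens, were fibroblast-like genes. Adamts5 was at 338, 313 and 460 CPM in the control and 221, 255 and 456 CPM in the high-fat diet fibroblast-like cells, all above the highest sample of the other 9 classes (194 CPM, Schwann-like). Adamts2 was at 256 ± 41.2 CPM there, and its lowest sample (196 CPM) was above the highest pericyte-like sample (175 CPM). The other versican-cutting members had other leading classes. Adamts1 was highest in pericyte-like cells (184 ± 61.3 CPM), with smooth muscle-like (130 ± 36.2 CPM), lymphatic endothelial-like (104 ± 47.8 CPM) and endothelial-like cells (97.8 ± 26.1 CPM) overlapping it. Adamts4 was a pericyte-like gene at a low level, with 11.7, 17.4 and 9.2 CPM in the controls and 11.1, 9.7 and 14.4 CPM in the high-fat diet samples. Lymphatic endothelial-like cells came next, at 3.9 ± 1.2 CPM, below all of these. Adamts9 was at 52.7 ± 14.3 CPM in endothelial-like and 24.8 ± 12.7 CPM in mesothelial-like cells. Adamts15 was at 37.0 ± 15.5, 34.8 ± 5.6 and 33.8 ± 7.6 CPM in pericyte-like, smooth muscle-like and fibroblast-like cells. Adamts10, which binds fibrillin microfibrils, was at 61.8 ± 8.8 CPM in fibroblast-like and 46.2 ± 7.9 CPM in smooth muscle-like cells. Adamts8 (21.8 ± 13.1 CPM in smooth muscle-like cells) and Adamts20 (18.0 ± 6.8 CPM in Schwann-like cells) were the only other Adamts genes to reach 10 CPM in 1 of the 10 classes.

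The 5 Adamtsl genes code for matrix proteins without enzyme activity that bind fibrillin and other microfibril parts. Adamtsl1 was highest in lymphatic endothelial-like cells (122 ± 15.8 CPM), before mesothelial-like (87.6 ± 19.7 CPM) and fibroblast-like cells (50.8 ± 25.4 CPM). Adamtsl3 and Adamtsl4 were fibroblast-like genes, at 65.7 ± 14.7 and 44.7 ± 7.2 CPM, each above every sample of the other 9 classes. Among the classes with too few cells for a level per sample, Adamtsl3 had a pooled level of 80.4 CPM (73.4 to 87.9, 95% Poisson interval) in chondrocyte-like cells and 109 CPM (68.1 to 165) in the 44 perineurial-like cells, above the fibroblast-like mean. Adamtsl5 did not separate smooth muscle-like (66.1 ± 11.2 CPM), fibroblast-like (64.9 ± 10.0 CPM) and Schwann-like cells (64.2 ± 24.1 CPM). Adamtsl2 varied most among fibroblast-like samples, with 75.2, 27.3 and 26.7 CPM in the controls and 66.3, 51.0 and 9.4 CPM in the high-fat diet samples.

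The inhibitors divided the classes among themselves. Timp2, which also takes part in the activation of pro-Mmp2, was highest in mesothelial-like cells, with 2339, 2456 and 2255 CPM in the controls and 2198, 2437 and 2496 CPM in the high-fat diet samples. All were above the highest fibroblast-like sample (2088 CPM), and every fibroblast-like sample (1800 ± 219 CPM) was above the macrophage-like class that followed (884 ± 90.9 CPM). Timp3, the matrix-bound inhibitor that also blocks ADAM and ADAMTS enzymes, was highest in lymphatic endothelial-like cells, with 2173, 2040 and 2012 CPM in the controls and 2162, 1773 and 1725 CPM in the high-fat diet samples. The next 4 classes did not separate, as fibroblast-like (1137 ± 300.4 CPM), pericyte-like (1077 ± 160.4 CPM), endothelial-like (1029 ± 128 CPM) and smooth muscle-like samples (1001 ± 150.1 CPM) overlapped. Timp3 was far lower in macrophage-like (166 ± 105 CPM), T cell-like (133 ± 89.8 CPM) and dendritic cell-like cells (119 ± 72.6 CPM). In these classes control 1 was the highest sample, at 340, 293 and 240 CPM. Timp1, the inducible inhibitor, was highest in fibroblast-like cells at 139 ± 43.9 CPM, and its lowest sample there (93.1 CPM) was just above the highest mesothelial-like one (90.5 CPM), though 1 Schwann-like sample reached 127 CPM.

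Timp4, known from heart and vessels, was an endothelial-like gene (chr6:115241892-115252205). Its level there was 431, 342 and 658 CPM in the controls and 728, 747 and 399.6 CPM in the high-fat diet samples, all above the 142 CPM of the highest pericyte-like sample. A UMI of Timp4 was seen in 55.1% of endothelial-like and 3.13% of T cell-like cells, or 34.9% and 0.7% at 1000 UMIs per cell. Lymphatic endothelial-like cells were at 28.7 ± 14.7 CPM. Timp1, Timp3 and Timp4 each overlap a synapsin gene (Syn1, Syn3 and Syn2) on the opposite strand. On the same strand, Timp2 overlaps Cep295nl and Adamtsl1 overlaps Sh3gl2. Whether the authors' counting used strand is not given in the sources used here.

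Members also differed between clusters of 1 class, shown here by clusters whose number carries no meaning of its own. Endothelial-like cluster 9 (2140 cells), led by the capillary-type genes Fabp4, Gpihbp1 and Rgcc, had Timp4 at 733 CPM, Adamts9 at 71.4 CPM and Mmp15 at 37.1 CPM with all samples summed. Cluster 15a (368 cells), led by Gja5, Bmx and Gkn3, genes of arterial lining, had 23.7, 1.6 and 0 CPM of these genes, but Timp2 at 814 CPM against 211 CPM. In the 4 samples with at least 20 cells in both clusters, Timp4 was 481, 513, 977 and 526 CPM in cluster 9 and 14.8, 9.1, 26.3 and 31.6 CPM in cluster 15a (control 1, control 2, high-fat diet 1 and high-fat diet 3). Timp2 went the other way in each of them, with 456, 127, 180.4 and 227 CPM in cluster 9 and 851, 777, 747 and 841 CPM in cluster 15a. Timp3 (984 and 1098 CPM), Adam15 (212 and 203 CPM) and Adamts1 (102 and 113 CPM) were close to each other in the summed clusters. Low levels of Timp4, Adamts9 and Mmp15 were not particular to cluster 15a. Cluster 15b (173 cells, 64.7% from control 3), led by Vwf, H19 and Cytl1, had 15.6, 4.3 and 1.4 CPM. Cluster 15d (64 cells, 95.3% from high-fat diet 2) had 24.8, 9.0 and 6.8 CPM. Timp2 was 369 CPM in cluster 15b and 605 CPM in cluster 15d.

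Among macrophage-like cells, cluster 26 (5388 cells, led by C1qc, Mrc1 and Lyve1, genes of resident macrophages) and cluster 31 (702 cells, led by Ccr2, Lyz1, Retnla and Ear2, genes of monocyte-derived cells) held opposite sets. Mmp9 was at 220.0 CPM in cluster 26 and 18.2 CPM in cluster 31, and Adam33 at 75.4 and 8.3 CPM. Mmp12 was at 18.6 and 199 CPM, Mmp19 at 7.2 and 91.2 CPM and Adam8 at 4.6 and 85.7 CPM. Adam8 was at least 68.2 CPM in each of the 6 samples of cluster 31 and at most 8.2 CPM in those of cluster 26. The Mmp12 level of cluster 31 was largely that of high-fat diet 2 (957 CPM), without which it was 104 CPM. Cluster levels without 1 sample, here and below, were computed after the values were seen. Control 1 lay the other way round, with 4.4 CPM of Mmp12 in cluster 31 and 107 CPM in cluster 26, where that sample had 77 and 32 cells. The remaining clusters, 14 and 25, were like cluster 26 in Mmp9 (242 and 112 CPM) and Adam8 (1.4 and 9.0 CPM). Their Mmp12 lay between clusters 26 and 31. It was 35.1 CPM in cluster 14, where 98.9% of the cells came from control 1. In cluster 25 it was 82.0 CPM, or 69.5 CPM without control 1. These Mmp12 levels rest on few cells. A UMI of the gene was seen in 7.98% of cluster 31, 1.78% of cluster 26, 1.28% of cluster 14 and 3.56% of cluster 25 cells.

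**Figure D3:**
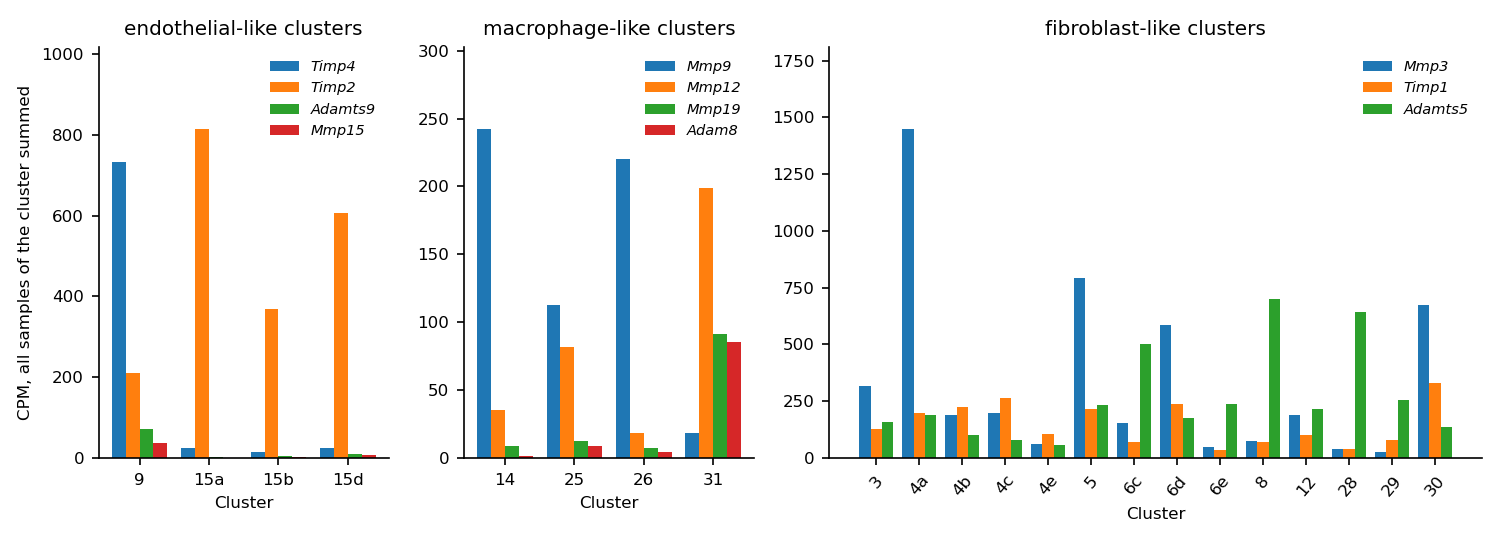
Levels (CPM, all samples of a cluster summed) of 3 or 4 members in the clusters of the endothelial-like, macrophage-like and fibroblast-like classes, 1 group of bars per cluster. Timp4 and Timp2 trade places between endothelial-like clusters 9 and 15a, Mmp9 and Mmp12 between macrophage-like clusters 26 and 31 (Mmp12 in cluster 31 being 104 CPM without high-fat diet 2), and Mmp3 ranges from 25 to 1448 CPM over the fibroblast-like clusters.

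In the 14 fibroblast-like clusters, Mmp3 ranged from 25 CPM in cluster 29 to 1448 CPM in cluster 4a, which Sfrp2, F3 and Fmod led beside Mmp3. Mmp2 varied much less, from 216 CPM in cluster 8 to 568 CPM in cluster 4c. Clusters 8 and 28, led by Pi16, Clec3b and Tmem100, had little Mmp3 (77.0 and 41.4 CPM) and the highest Adamts5 (702 and 642 CPM) and Timp2 (2718 and 2970 CPM). Clusters 4a, 5 and 30 had high Mmp3 (1448, 792 and 675 CPM) and less Adamts5 (190, 234 and 139 CPM). Cluster 30 also had the most Timp1, at 330 CPM. Of these, cluster 30 came mostly from high-fat diet 1 (1564 of 1638 cells) and cluster 5 from high-fat diet 2, so the cluster and the sample cannot be told apart there. Without these samples, Timp1 in cluster 30 was 130 CPM and Adamts5 was 252 CPM in cluster 30 and 142 CPM in cluster 5. Mmp3 in cluster 4a was 862 CPM without high-fat diet 3, and in cluster 28 it was 82.6 CPM without control 2.

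The comparison of diets asked whether these genes differed between control and high-fat diet within a class. UMIs were summed per sample and class and tested with edgeR's quasi-likelihood test over all genes of the class, with Benjamini-Hochberg adjustment and a call at 0.05. The values in the diet comparison are CPM scaled by edgeR's TMM factors, which is why they differ slightly from those above, and differences are log2 of high-fat diet over control ± SE. No member was called in any of the 4 classes. This held for 28 members tested in endothelial-like cells, where 0.0379% of all genes were called, and for 43 in smooth muscle-like cells (0% of all genes), 52 in fibroblast-like cells (0%) and 32 in macrophage-like cells (0%). Members that were too low to be tested are not among these. At an unadjusted p under 0.05 there were 2 members in endothelial-like cells (12.3% of all genes), 4 in smooth muscle-like cells (9.5%), 2 in fibroblast-like cells (10.6%) and 3 in macrophage-like cells (8.94%), shares at or below those of all genes in each class but the macrophage-like, where 3 of 32 is near it. The diets did not overlap for 1 member in endothelial-like cells (18.3% of all genes), 6 in smooth muscle-like cells (15.8%), 4 in fibroblast-like cells (17.8%) and 4 in macrophage-like cells (15.1%). DESeq2 called 0 of 14 members in endothelial-like cells (1.04% of all genes), 1 of 42 in smooth muscle-like cells (0.774%), 1 of 48 in fibroblast-like cells (1.52%) and 2 of 21 in macrophage-like cells (0.561%). The median difference of the members was 0.12 in endothelial-like, -0.06 in smooth muscle-like, -0.13 in fibroblast-like and 0.08 in macrophage-like cells, beside 0, -0.02, -0.01 and -0.01 for all genes.

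In fibroblast-like cells the clearest member was Mmp3. Scaled levels were 257, 111 and 189 CPM in the controls and 463, 493 and 405 CPM in the high-fat diet samples, a difference of 1.29 ± 0.29 with an adjusted p of 0.272 by edgeR's quasi-likelihood test. The adjusted p was 0.00206 by DESeq2 and 0.0891 by edgeR without control 1, where the difference was 1.60, and over 14 alternatives it ran from 0.00206 to 0.781. The groups did not overlap and were further apart than the spread within either, but the call depended on the test. The mix of clusters differed between samples: cluster 12 held 20, 2038 and 587 cells of the controls against 88, 579 and 1499 of the high-fat diet samples, and clusters 5 and 30, both high in Mmp3, came mostly from high-fat diet 2 and 1. Only clusters 4a and 12 had 20 cells or more in all 6 samples. In cluster 4a Mmp3 was 2279, 290.0 and 403 CPM in the controls and 2022, 1460 and 1898 CPM in the high-fat diet samples. In cluster 12 it was 388, 155 and 198 CPM and 394, 211 and 219 CPM. The diets overlapped in both clusters only through control 1, which was among the high samples and had 22 cells in cluster 4a and 20 in cluster 12. Controls 2 and 3 lay below all high-fat diet samples in both, narrowly so in cluster 12 (155 and 198 CPM against 211 CPM and above). No test was made within clusters.

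Mmp2 lay in the opposite order in fibroblast-like cells, at 324, 634 and 331 CPM in the controls and 259, 270.05 and 286 CPM in the high-fat diet samples. The difference of -0.66 ± 0.27 (adjusted p 0.462, edgeR) rested on control 2, without which it was -0.28. Adamtsl1 (-0.84 ± 0.37, adjusted p 0.477, edgeR) and Adamtsl5 (-0.34 ± 0.15, adjusted p 0.478, edgeR) were next by p, with overlapping diets. Adamts17 and Adam17 also had diets that did not overlap, the former between 0.756 and 2.18 CPM and the latter, with a difference of -0.13 ± 0.10, between 29.9 and 35.3 CPM in all 6 samples.

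**Figure D4:**
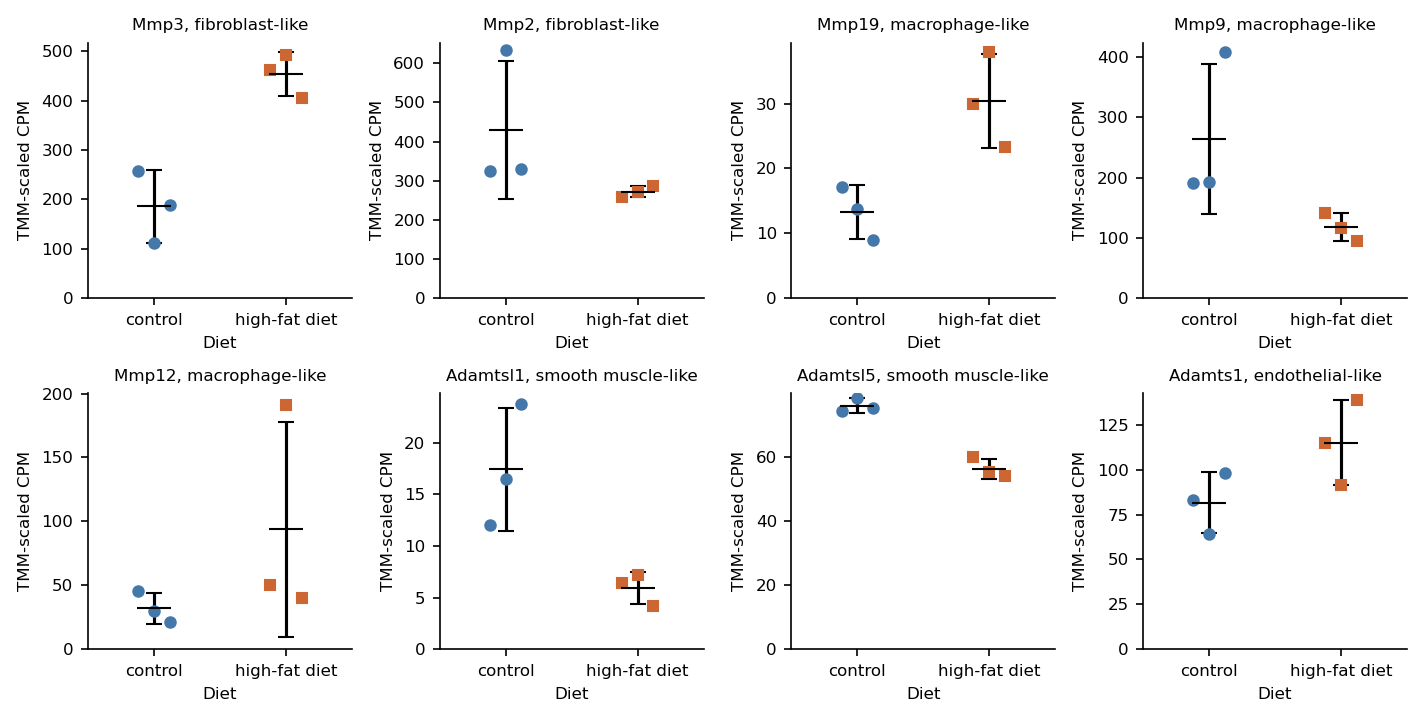
Scaled levels (CPM with TMM factors) of 8 member and class pairs in the 3 control (circles) and 3 high-fat diet samples (squares), with the mean and SD of each diet as lines. The diets are apart for Mmp3 and Mmp2 in fibroblast-like, Mmp19 and Mmp9 in macrophage-like and Adamtsl1 and Adamtsl5 in smooth muscle-like cells, and overlap for Mmp12 and Adamts1; edgeR called none of the 8.

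Macrophage-like cells had Mmp19 higher and Mmp9 lower in all 3 high-fat diet samples. Mmp19 was at 17.2, 13.7 and 8.96 CPM in the controls and 29.9, 38 and 23.4 CPM in the high-fat diet samples, a difference of 1.18 ± 0.26 (adjusted p 0.414 by edgeR, 0.0444 by DESeq2, and 0.0278 by edgeR without control 1; 0.0278 to 0.938 over 14 alternatives). Mmp9 was at 191, 193 and 408 CPM in the controls and 142, 117 and 95.5 CPM in the high-fat diet samples, a difference of -1.16 ± 0.34 (adjusted p 0.464 by edgeR and 0.0479 by DESeq2; 0.0479 to 0.974 over 14 alternatives). Without control 3, the highest, the Mmp9 difference was -0.70. Mmp19 was mostly in cluster 31, where it was 83.7, 50.4 and 14.2 CPM in the controls and 207, 176 and 129 CPM in the high-fat diet samples, again without overlap. This cluster had 77, 240 and 118 cells from controls 1 to 3, and the high-fat diet samples gave it 67, 73 and 127. Mmp9 within cluster 26 was 228, 197 and 463 CPM in the controls and 168, 251 and 109 CPM in the high-fat diet samples, which overlapped.

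Adam17 (0.35 ± 0.12, adjusted p 0.500, edgeR) and Adam10 (-0.26 ± 0.12, adjusted p 0.564, edgeR) were the other 2 members with macrophage-like diets apart. Their shifts were small and in opposite directions. Adam17 ranged from 35.8 to 42.0 CPM in the controls and from 48.4 to 50.9 CPM in the high-fat diet samples, and Adam10 from 64.2 to 68.6 CPM and from 50.9 to 60.4 CPM. The macrophage elastase Mmp12 was at 45.3, 29.8 and 21.3 CPM in the controls and 49.9, 191 and 40.3 CPM in the high-fat diet samples. Its diets overlapped, and the difference of 1.53 ± 0.71 (edgeR, adjusted p 0.591) was set largely by high-fat diet 2.

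Leaving out control 1, the sample with the high skeletal muscle markers in all 4 compared classes, brought edgeR calls. In macrophage-like cells 4 of 33 members were then called (4.54% of all genes): Mmp3 (difference 3.04, adjusted p 0.0118), Mmp19 (1.36, adjusted p 0.0278), Adamts1 (1.81, adjusted p 0.0187) and Mmp23 (1.32, adjusted p 0.0257), all higher in the high-fat diet samples. Over their alternatives the adjusted p of these 4 reached 0.974, 0.938, 0.974 and 0.9995. In endothelial-like cells 1 of 29 was called (1.92% of all genes), again Mmp3 (difference 2.54, adjusted p 0.0428, up to 0.923 over its alternatives), with scaled levels of 45.6, 2.56 and 8.35 CPM in the controls and 24.5, 46.6 and 31.7 CPM in the high-fat diet samples. In both classes the summed fibroblast markers were also lower in controls 2 and 3 than in the high-fat diet samples. In endothelial-like cells they were 1310 and 730 against 1311 to 1926 CPM. In macrophage-like cells Mmp23 and Adamts1, like Mmp3, were low in controls 2 and 3 only. Scaled Mmp23 was 13.7 and 12.9 CPM there, against 53.6 CPM in control 1 and 26.4 to 45.3 CPM in the high-fat diet samples. Scaled Adamts1 was 3.34 and 6.32 CPM, against 16.05 CPM in control 1 and 14.6 to 16.98 CPM in the high-fat diet samples. The part of the fibroblast markers in any of these calls was not tested.

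In smooth muscle-like cells no Adamtsl gene was called by edgeR, and 3 of the 5 had diets apart, all lower in the high-fat diet samples, beside 15.8% of all genes with diets apart in either direction. Over all members tested there it was 6 of 43, near that share. Adamtsl1 was at 12, 16.5 and 23.8 CPM in the controls and 6.42, 7.16 and 4.14 CPM in the high-fat diet samples, a difference of -1.54 ± 0.31 (adjusted p 0.327 by edgeR and 0.00198 by DESeq2; 0.00198 to 0.948 over 14 alternatives). Adamtsl5 was at 74.4, 78.5 and 75.2 CPM in the controls and 59.9, 55.2 and 53.9 CPM in the high-fat diet samples, a difference of -0.43 ± 0.12 (adjusted p 0.451, edgeR). Adamtsl4 was lower by a similar step (-0.46 ± 0.16, adjusted p 0.478, edgeR), from 13.9 ± 1.1 to 10.1 ± 1.4 CPM (n = 3 each). Of the Adamts genes, Adamts9 was higher in the high-fat diet samples, with 9.19, 7.87 and 7.67 CPM against 11, 10.2 and 13.2 CPM (0.47 ± 0.17, adjusted p 0.486, edgeR), and Adamts10 lower (-0.30 ± 0.13, adjusted p 0.537, edgeR). Adam28, near 1 CPM, was the remaining member with diets apart. The smooth muscle-like clusters were split by sample more than by diet, with cluster 0 from control 1 (1327 of 1336 cells), cluster 24 from control 3 (1225 of 1353 cells), cluster 23 from control 2 (1691 of 1787 cells) and cluster 38 from high-fat diet 2 (1939 of 2519 cells). No cluster had 20 cells or more in all 6 samples, and 3 had samples of both diets with that many. In cluster 2 Adamtsl1 was 0 and 69.0 CPM in controls 2 and 3 (29 and 92 cells) and 11.8, 2.4 and 3.8 CPM in the high-fat diet samples. In cluster 1 it was 10.1 and 19.4 CPM in controls 1 and 2, against 8.2 CPM in high-fat diet 1 and 11.9 CPM in high-fat diet 3. For Adamtsl5 the values were 76.5 and 56.9 against 39.3, 57.8 and 53.7 CPM in cluster 2, and 66.6 and 63.1 against 59.2 and 83.1 CPM in cluster 1. In cluster 23 Adamtsl1 was 15.2 and 5.4 CPM in controls 2 and 3, against 12.8 CPM in high-fat diet 1 and 7.1 CPM in high-fat diet 3. The diets overlapped for both genes in these 3 clusters, where several samples had under 100 cells, and no test was made within clusters.

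In endothelial-like cells Adamts1, an anti-angiogenic protease of the vessel wall, had the smallest p. It was at 83.0, 64.0 and 98.4 CPM in the controls and 115, 91.4 and 139 CPM in the high-fat diet samples, a difference of 0.49 ± 0.20 (adjusted p 0.367, edgeR), and the diets overlapped. Adam19, a sheddase of neuregulin, was the 1 member with diets apart, at 23.9, 18.6 and 17.6 CPM against 15.7, 12.9 and 12.8 CPM (-0.53 ± 0.22, adjusted p 0.381, edgeR). Mmp11 (-0.87 ± 0.43, adjusted p 0.444, edgeR) and Adamts15 (-0.75 ± 0.47, adjusted p 0.554, edgeR) were next and overlapped.

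The inhibitors showed no call and no separation of the diets in any of the 4 classes. In endothelial-like cells Timp4 was at 411, 362 and 691 CPM in the controls and 728, 730.4 and 405 CPM in the high-fat diet samples (0.35 ± 0.32, adjusted p 0.719, edgeR). For the abundant Timp2 the differences were small relative to the SE in macrophage-like (0.11 ± 0.14), smooth muscle-like (0.09 ± 0.15) and fibroblast-like cells (-0.13 ± 0.20), with adjusted p from edgeR of 0.826, 0.869 and 0.833. Timp3 differed by 0.11 ± 0.15 in smooth muscle-like and by -0.07 ± 0.16 in endothelial-like cells. A lack of a call does not show equal levels.

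**Figure D5:**
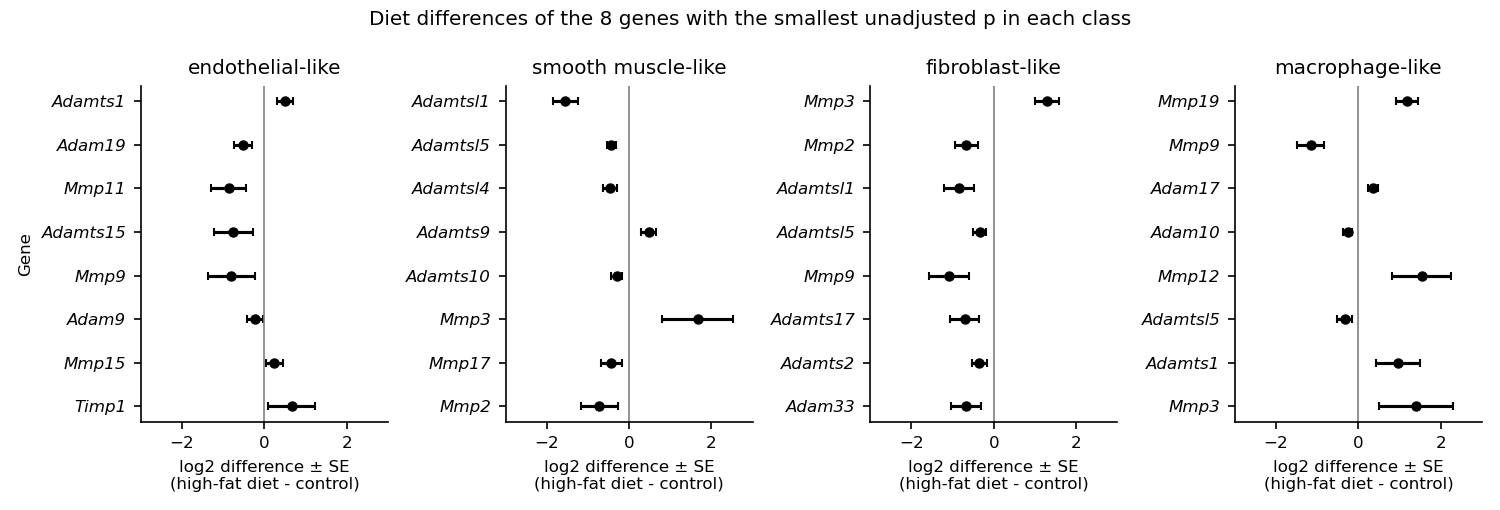
Diet differences (log2 of high-fat diet over control, points, with SE as bars) of the 8 members with the smallest unadjusted p in each of the 4 compared classes. Mmp3 in fibroblast-like cells (1.29), Mmp19 in macrophage-like cells (1.18) and Adamtsl1 in smooth muscle-like cells (-1.54) lie furthest from 0 relative to their SE, and none of the 32 points belongs to a member called by edgeR.

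Whether the diet effect differed among the 4 classes was tested with edgeR's class-by-diet interaction, with the sample as a block. None of 52 members was called (0% of all genes), and 3 had an unadjusted p under 0.05 (3.93% of all genes), namely Mmp13, Adam17 and Mmp19. Relative to endothelial-like cells, the difference of Mmp19 was 0.84 in macrophage-like and -0.31 in fibroblast-like cells. Without control 1 there was 1 call (0.816% of all genes), Adamts1. An effect seen above in 1 class and not in another is therefore not shown to differ between classes.

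Other genes of the pathway came in 7 lists of 77 genes, and none of them was called by edgeR in any class. The list with the most genes at an unadjusted p under 0.05 was the matrix substrates, the collagens, laminins and glycoproteins that these enzymes cut. It is described first because it had the most, and none of its genes was called. In fibroblast-like cells 7 of its 15 tested genes had such a p (10.6% of all genes), 6 lower and 1 higher on the high-fat diet, and its median difference was -0.44 against -0.01 for all genes. Col1a1, the chain of type I collagen, was at 2048, 3146 and 2841 CPM in the controls and 1419, 1173 and 1595 CPM in the high-fat diet samples (-0.94 ± 0.22, adjusted p 0.264, edgeR), and Col3a1 (-0.92 ± 0.22, adjusted p 0.273, edgeR) was apart in the same way. The proteoglycan Vcan, a substrate of Adamts1, Adamts4 and Adamts5, was the higher one, at 122, 119.7 and 96.7 CPM against 164, 143 and 145 CPM (0.42 ± 0.13, adjusted p 0.372, edgeR). In smooth muscle-like cells 4 of 14 matrix substrates had such a p (9.5% of all genes), all lower, with a list median of -0.45 against -0.02 for all genes. In endothelial-like cells 0 of 13 did (12.3% of all genes) and in macrophage-like cells 1 of 13 (8.94%).

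Among the inducers of protease genes, 3 of 10 had an unadjusted p under 0.05 in fibroblast-like cells (10.6% of all genes), all higher on the high-fat diet. One was Fosl1, an AP-1 subunit, at 0.51, 0.13 and 0 CPM in the controls and 1.67, 1.80 and 1.57 CPM in the high-fat diet samples (adjusted p 0.273, edgeR), and Runx1 (0.70 ± 0.27) and Fosl2 (0.33 ± 0.13) were the others. In the other 3 classes the 1 inducer with such a p was Junb, another AP-1 subunit, and it was lower. Junb was at 325, 357 and 299 CPM in control and 192, 259 and 273 CPM in high-fat diet endothelial-like cells (-0.44 ± 0.15, adjusted p 0.315, edgeR), which did not overlap, and it differed by -1.52 ± 0.61 in smooth muscle-like cells (adjusted p 0.525, edgeR), with overlap. This was 1 of 8 inducers in each of these classes, and 0 of 8 in macrophage-like cells. Of the activators and receptors, 3 of 8 had such a p in endothelial-like cells (12.3% of all genes), 2 higher and 1 lower, with a list median of 0.01. Bsg, the inducer of Mmp genes also known as CD147, was at 473, 514 and 466 CPM in control and 650, 754 and 711 CPM in high-fat diet endothelial-like cells (0.54 ± 0.12, adjusted p 0.178, edgeR). The diets were apart by more than the spread within each. Plaur, the receptor of urokinase, was lower and also apart, at 16.5, 19.2 and 17.1 CPM against 11.3, 15.2 and 9.99 CPM (-0.54 ± 0.24, adjusted p 0.397, edgeR). Plat, tissue plasminogen activator, was higher with overlap (1.16 ± 0.42, adjusted p 0.364, edgeR). In macrophage-like cells 1 of 9 had such a p (8.94% of all genes). This was Cd44, a hyaluronan receptor that docks Mmp9, at 116, 133 and 99.1 CPM in control and 171, 205 and 168 CPM in high-fat diet macrophage-like cells (0.64 ± 0.15, adjusted p 0.418, edgeR). Of the list of other inhibitors and clearance, 2 of 10 had such a p in fibroblast-like cells (10.6% of all genes). Its diets were apart for 2 genes there, 1 higher and 1 lower on the high-fat diet. The higher one was Thbs1, a matrix glycoprotein, at 22.6, 33.4 and 6.30 CPM in control and 77.8, 43.1 and 53.5 CPM in high-fat diet samples (1.44 ± 0.53, adjusted p 0.447, edgeR). Such a p was also seen for 1 of 9 of its genes in endothelial-like cells (12.3% of all genes). It was 1 of 8 in macrophage-like cells (8.94%) and 0 of 8 in smooth muscle-like cells (9.5%). The sheddase partners and ADAM substrates had at most 1 gene with such a p in any class, and the other matrix proteases, with the cathepsins, at most 1.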

How the data were processed

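The 6 mouse aorta samples were sequenced as 3′ single-cell libraries, with 2 wells joined in each. The deposited values are raw UMI counts per gene and cell, made by the authors with Cell Ranger 3.0 on mm10, per the submitters' processing notes. The annotation, strand setting and cell calling are not given in the sources used here. Cells with at least 300 genes and under 20% mitochondrial UMIs were kept, and Scrublet as run in scanpy 1.11.5 marked 1379 of 59413 as doublets (2.32%, at a score of 0.25), which were left out. Counts were clustered (2000 variable genes without members, 30 principal components, 20 neighbours, Leiden resolution 1.0), and clusters were named from marker genes. The members, gene lists and alternatives were chosen with earlier results of these data known.

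Levels (CPM) are shares of a class's UMIs in a sample, scaled to a total of 1000000. Genes named are 30 listed members, the 6 highest per compared class, the 4 with the smallest unadjusted p per class, and a few others chosen after their values were seen (Adam11, Adam22, Adam23, Adamts8, Adamts17, Adamts20, Adamtsl2, Adamtsl3, Mmp8, Mmp15, Mmp16, Mmp17 and Adam28). Diets were compared on summed counts with edgeR 4.0.16 (TMM, filterByExpr, robust quasi-likelihood F-test, Benjamini-Hochberg over all genes of a class), with DESeq2 1.42.0 as an alternative, both in R 4.3.3, after a test on simulated counts. Poisson intervals are exact at 95% and cover counting error only. Gene positions are from GENCODE vM21 and promoters from RefSeq GRCm38.p6. The labels do not give pairs, and the deviations of same-numbered samples correlated from -0.38 to 0.40, so the numbers were not taken as pairs.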

Additional observations from a re-analysis of the deposited data

How the results depend on the processing

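No member was called by edgeR in any of the 4 classes as reported, and this count held in 57 of 63 repeats, over 5 counts. With DESeq2 the count was 0 in endothelial-like, 1 in smooth muscle-like, 1 in fibroblast-like and 2 in macrophage-like cells. Leaving out 1 sample at a time gave 0 to 1 members in endothelial-like cells, 0 to 4 in macrophage-like cells and 0 to 1 for the difference of the diet effect between classes, in each case with the higher count when control 1 was left out, and 0 throughout in smooth muscle-like and fibroblast-like cells. The cause was not tested. With the replicate number added as a replicate block the count was 0 in all 4 classes, and the block moved the Mmp3 difference in fibroblast-like cells to 1.36, with no call. The labels do not say that the numbers pair the samples, and a sample was closest to its own number in 1 of 12 cases. With 3 samples per diet this cannot decide whether the numbers mark a shared origin. Of 271 repeats of 20 single log2 differences, none reversed direction, 262 stayed on the same side of the threshold and 9 passed it, 4 with DESeq2 and 5 without control 1. Of 403 repeats of 41 levels, 1 moved by more than its SD between samples, Adam33 in macrophage-like cells, at 79.6 CPM when cells were thinned to 1000 UMIs. A gate on single cells with at most 1 UMI of other classes left too few cells to be fitted. A wider gate at 3 times any other class was chosen after seeing the data. It was not used for endothelial-like cells, where control 1 had 19 cells, under the minimum of 20.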
